A study of Mus musculus with 6 samples.

Results

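Intraflagellar transport (IFT) and BBSome genes were examined in mouse testes at postnatal day 14. The genes were chosen by symbol, as every row of the count table named Ift or Bbs followed by a number, plus Ttc8, Arl6, Bbip1, Lztfl1, Traf3ip1, Dync2h1 and Dync2li1. This gave 34 genes of 50763 in the table, and all 34 passed the filter on low counts. RNA was sequenced after oligo-dT capture from 3 whole-testis samples labelled wild-type (WT) and 3 labelled sKO. In the sKO mice Rif1 was conditionally deleted in pre-meiotic germ cells. RIF1 is a DNA repair and replication-timing factor. The Cre driver, the deleted exons and the strain are not given here. Nothing in the labels says that the 3 samples of a genotype were separate animals, so a p-value below refers to the spread of these samples, which may be technical.

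IFT trains are polymers that walk along the microtubules of a cilium or a growing sperm tail. The IFT-B complex is carried outward by kinesin-2, and the IFT-A complex and the dynein-2 motor bring the train back. The BBSome is a membrane coat that rides on the trains and moves membrane proteins out of the cilium, and its loss in humans causes Bardet-Biedl syndrome. In mouse testis several IFT proteins are needed to build the sperm flagellum, and somatic testis cells carry primary cilia that use the same machinery. Because RNA came from whole tissue, fewer cells of a type and less RNA per cell cannot be told apart.

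Library totals were 15941672 to 18296594 counts. The group labels were checked on Rif1, which fell from 103 ± 23.3 to 45.8 ± 3.62 CPM (counts per library scaled to one size by TMM; mean ± SD over 3 libraries; log2 fold change -1.17, SE 0.15, adjusted p = 0.0145 by edgeR). Summed Sertoli cell markers stood at 4693 to 5593 CPM in WT and at 5766 to 6913 CPM in sKO. The epididymis markers, of the duct beside the testis, summed to 237.2 CPM in sKO library 1 and to 6.90 to 32.2 CPM in the other 5 libraries. Results are therefore also given without sKO library 1.

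Transcripts of 4 IFT and dynein-2 genes were lower in sKO testes by edgeR with all 6 libraries, and no BBSome gene was called in that fit. Of the 34 genes 4 fell and 0 rose at an edgeR adjusted p under 0.05, against 1.27% of all 18860 genes tested that were called lower and 0.0318% called higher. The 4 were Ift172, Ift122, Dync2h1 and Ift70a2. In 14 of the 34 every sKO library lay below every WT library, against 10.7% of all genes tested, and in 0 genes did every sKO library lie above, against 9.58%. Estimates were below 0 for 33 of 34 genes, against 44.7% of all genes tested, and 17 had an unadjusted p under 0.05 with a lower estimate, against 8.54%, while 0 had one with a higher estimate, against 5.06%. The median log2 fold change was -0.34 over the 34 genes and 0.03 over all genes tested. DESeq2 called 8 of the 34 lower, against 3.82% of all genes tested. In limma-voom, and in edgeR without WT library 2, sKO library 1 or sKO library 2, 0 of the 34 and 0 of all genes were called, with 16, 18, 14 and 14 of the 34 lower and 0 higher at an unadjusted p under 0.05. Without WT library 1 the call count was 1, against 0.524% of all genes called lower in that fit, and the median was -0.18.

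**Figure D1:**
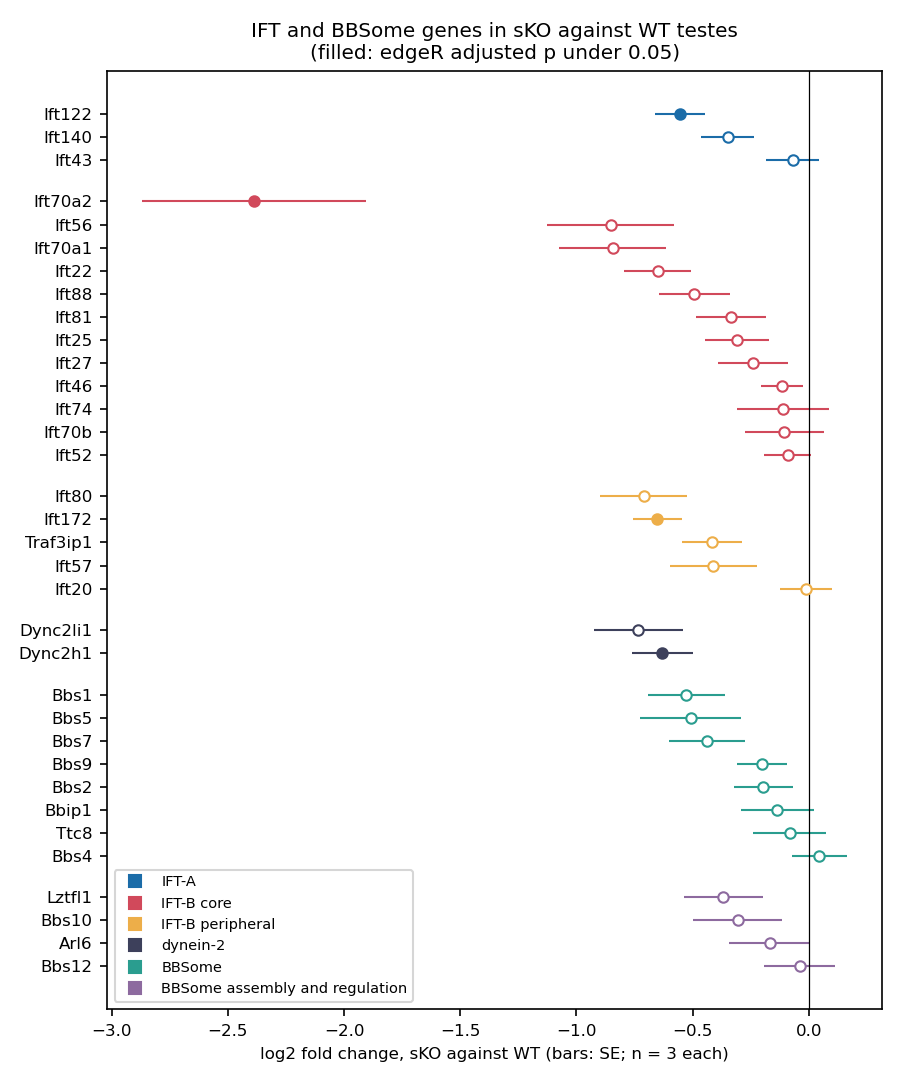
Log2 fold change of each of the 34 genes in sKO against WT testes, grouped by complex, with bars for the SE (n = 3 each) and filled points for an edgeR adjusted p under 0.05. Ift70a2 lies farthest left at -2.39, and Bbs4 is the single gene with an estimate above 0.

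Summed over the 22 IFT and dynein-2 genes, the level was 1347, 1092 and 1038 CPM in WT and 844.2, 857.7 and 937.1 CPM in sKO (values are given in the order of the library numbers throughout). The groups did not overlap, and the sKO mean was 75.9% of the WT mean (an exact two-sided permutation test of 3 against 3 cannot give a p below 0.1). Of these 22 genes 14 had groups that did not overlap, all lower in sKO, against 10.7% of all genes tested. At an unadjusted p under 0.05, 14 were lower, against 8.54% of all genes tested. The 12 BBSome genes and partners summed to 446.6, 351.3 and 339.2 CPM in WT and to 302.3, 312.4 and 344.9 CPM in sKO. Here sKO library 3 lay above WT library 3, so the groups overlapped, and the sKO mean was 84.4% of the WT mean. None of the 12 was called by edgeR, and DESeq2 and limma-voom also called 0. At an unadjusted p under 0.05, 3 were lower and 0 higher, against 8.54% and 5.06% of all genes tested. Bbs1 was called lower in 2 of the 14 alternative settings, which were edgeR without the low-count filter (adjusted p = 0.00477) and edgeR without WT library 3 (adjusted p = 0.0469). The difference between the IFT and BBSome genes was not tested.

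IFT-B, the outward complex, held the gene with the largest fold difference of the 34. Ift70a2, a tetratricopeptide subunit with close paralogs, stood at 8.36, 3.95 and 2.30 CPM in WT and at 0.721, 0.727 and 1.32 CPM in sKO. All sKO libraries lay below all WT libraries, and the WT libraries themselves spread widely. Ift70a2 fell from 4.87 ± 3.13 to 0.922 ± 0.344 CPM (mean ± SD over 3 libraries per group), a log2 fold change of -2.39 (SE 0.48, adjusted p = 0.0480 by edgeR). It was a rare transcript, with 37 to 149 counts in a WT library and 12 to 24 in an sKO library. Without WT library 1 its log2 fold change was -1.75 (adjusted p = 0.0802 by edgeR). The call was also lost without WT library 2, sKO library 1 or sKO library 2 (adjusted p = 0.157, 0.158 and 0.240 by edgeR). In limma-voom the adjusted p was 0.0993, and Ift70a2 was called in 7 of the 14 alternative settings.

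The estimates for its paralogs were closer to 0. Ift70a1 stood at 24.7, 14.3 and 15.4 CPM in WT and at 9.85, 8.17 and 12.3 CPM in sKO, again without overlap (log2 fold change -0.84, SE 0.23, adjusted p = 0.116 by edgeR). Ift70b stood at 8.80, 7.6 and 7.90 CPM in WT and at 8.11, 6.84 and 7.64 CPM in sKO, with overlap (log2 fold change -0.11, SE 0.17, adjusted p = 0.834 by edgeR). In GENCODE M21 (GRCm38), where they carry the older names Ttc30a1, Ttc30a2 and Ttc30b, the 3 genes lie on chromosome 2 and each encode 664 residues. Coding sequences were 95.1% identical between Ift70a1 and Ift70a2, with an identical stretch of up to 460 bases, and 94.8% and 94.9% identical between each of these and Ift70b. Reads from identical stretches cannot be assigned, and their treatment in counting is not given, so the split between these paralogs is uncertain. Without the 3 paralogs the median log2 fold change over the other 31 genes was -0.34, with 3 called lower.

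Promoter sequence was examined for the X-box, a motif of ciliary promoters that transcription factors of the RFX family bind. Rfx2, of that family, was called lower. Rfx2 stood at 47.6, 51.8 and 31.5 CPM in WT and at 14.0, 14.5 and 22.2 CPM in sKO (log2 fold change -1.37, SE 0.22, adjusted p = 0.0299 by edgeR). The X-box was searched on both strands as arms GTTNCC and GGNAAC, 0 to 3 letters apart, in RefSeq windows (GRCm38.p6) of 250 bases before to 50 after a start. A window was found for 29 of the 34 genes, and 5 of the 29 (17.2%) held a match, against 0.966% of 13358 tested genes with a window. The 5 genes were Ift70a2, Ift56, Ift57, Bbs7 and Lztfl1, and Ift70a2 is the one of them that edgeR called. Windows of the 34 genes were also found through synonyms or older names, as for Ift70a2 and Ift56. The shares of tested genes count only those with the same symbol in both sources, so the 2 kinds of share are not matched alike. With the looser first arm GTNNCC, which also takes every match of the stricter one, Ift22, Bbs1 and Bbs4 were added, for 8 of 29 (27.6%) against 3.26% of tested genes. The full cyclic AMP response element was found in the Ift57 window alone, 1 of 29 (3.45%) against 3.08% of tested genes. A match is a description of the letters and not of binding. A link between Rfx2 and the levels of the 34 genes was not tested.
The matched letters are in capitals, 5′ to 3′ on the strand of the gene, with up to 8 bases on either side.
Ift70a2: gttggcttGTTGCCATGGGAACaagcacac
Ift56: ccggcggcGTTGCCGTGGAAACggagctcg
Ift57: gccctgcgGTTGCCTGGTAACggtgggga
Bbs7: gcgccccgGTTGCCTTGGAAACcggccagc
Lztfl1: tttctctGTTGCCATTGGCAACggcaggc
Ift22: tgttcccgGTCGCCGTGGAAACtgaccagc
The stretches are chr2:75978182-75978211 (minus strand) for Ift70a2, chr6:38381483-38381512 (plus) for Ift56 and chr16:49699226-49699254 (plus) for Ift57. Those of Bbs7, Lztfl1 and Ift22 are chr3:36613489-36613518 (minus), chr9:123717768-123717796 (minus) and chr5:136908109-136908138 (plus). The capitals begin 24 bases before the RefSeq start in Ift70a2, 33 in Ift56, 60 in Ift57, 121 in Bbs7, 164 in Lztfl1 and 33 in Ift22. The Ift22 letters match the looser arm, and Lztfl1 holds a second match of the stricter arm that begins 7 bases into its transcript. Ift22 and Ift57 each hold a further looser match, which begins 63 and 87 bases before the start. The looser matches of Bbs1 and Bbs4, whose letters are not shown, begin 2 and 24 bases into the transcript.

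Other core subunits of IFT-B included genes with separated groups and genes with nearly equal levels. Ift56, whose mutation in the hop mouse impairs sperm tails, stood at 11.6, 7.19 and 6.78 CPM in WT and at 3.72, 4.06 and 6.32 CPM in sKO. The groups did not overlap, though sKO library 3 lay close to WT library 3, and the log2 fold change was -0.85 (SE 0.27, adjusted p = 0.177 by edgeR). Ift22, a Rab-like small GTPase, stood at 50.1, 38.7 and 34.5 CPM in WT and at 27.9, 25.1 and 25.7 CPM in sKO. Here the sKO libraries were close to one another and all below WT, with a log2 fold change of -0.65 (SE 0.14) just outside the threshold (adjusted p = 0.0548 by edgeR). It was called with raw library totals (adjusted p = 0.0390 by edgeR) and by DESeq2 (adjusted p = 0.00220). Ift88, the subunit mutated in the classical Tg737 polycystic kidney mouse, had 80.9, 55.6 and 55.8 CPM in WT and 40.5, 46.1 and 50 CPM in sKO, without overlap (adjusted p = 0.169 by edgeR).

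Estimates were closer to 0 in the remaining core subunits. Ift25 and Ift27 form a dimer that is needed for hedgehog signalling and for sperm tails in the mouse. Ift25 had 19.4, 17.3 and 21.4 CPM in WT and 16.5, 15.1 and 15.2 CPM in sKO, without overlap (log2 fold change -0.31). Ift27 had 16.8, 16 and 14.6 CPM in WT and 15.4, 12.7 and 12 CPM in sKO, with overlap (log2 fold change -0.24). Of the tubulin-binding pair, Ift81 had a log2 fold change of -0.34 and Ift74 one of -0.11, and both had overlapping groups. The levels of Ift46 lay close together, at 60.7, 63.2 and 60.5 CPM in WT and 55.3, 58.4 and 56.6 CPM in sKO, and although the groups did not overlap its log2 fold change was -0.12 (SE 0.09, adjusted p = 0.624 by edgeR). Ift52 stood at 61.9 to 74.4 CPM in WT and 60.3 to 65.2 CPM in sKO.

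Peripheral IFT-B subunits, which join the train to its kinesin and cargo, held the call that survived the most settings. Ift172, the largest of them, stood at 113, 102 and 88.5 CPM in WT and at 66.2, 63.7 and 63.0 CPM in sKO. The sKO libraries were nearly equal and all lay well below WT. Ift172 fell from 101 ± 12.3 to 64.3 ± 1.71 CPM (mean ± SD over 3 libraries per group), a log2 fold change of -0.65 (SE 0.11, adjusted p = 0.0251 by edgeR). It was called under 9 of 14 alternative settings, including without WT library 1, and its adjusted p reached 0.173 without sKO library 2.

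Ift80, mutated in a human skeletal ciliopathy, had 108, 66.2 and 67.4 CPM in WT and 46.7, 44.8 and 56.4 CPM in sKO. Its groups did not overlap, but WT library 1 stood far above the others, and the log2 fold change of -0.71 (SE 0.19) was not called (adjusted p = 0.112 by edgeR), or -0.44 without that library. Traf3ip1, the IFT54 subunit that binds microtubules, had 63.9, 50.3 and 48.4 CPM in WT and 37.1, 40.8 and 44.0 CPM in sKO, without overlap (log2 fold change -0.42, adjusted p = 0.164 by edgeR). Ift57 overlapped by a narrow margin, with a lowest WT value of 20.0 CPM and a highest sKO value of 20.1 CPM (log2 fold change -0.41). Ift20, which shuttles between the Golgi and the cilium, had 76.3, 60.6 and 62.8 CPM in WT and 62.9, 65.9 and 69.3 CPM in sKO. Its group means were 66.6 and 66.0 CPM, and its log2 fold change was -0.01 (SE 0.11).

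**Figure D2:**
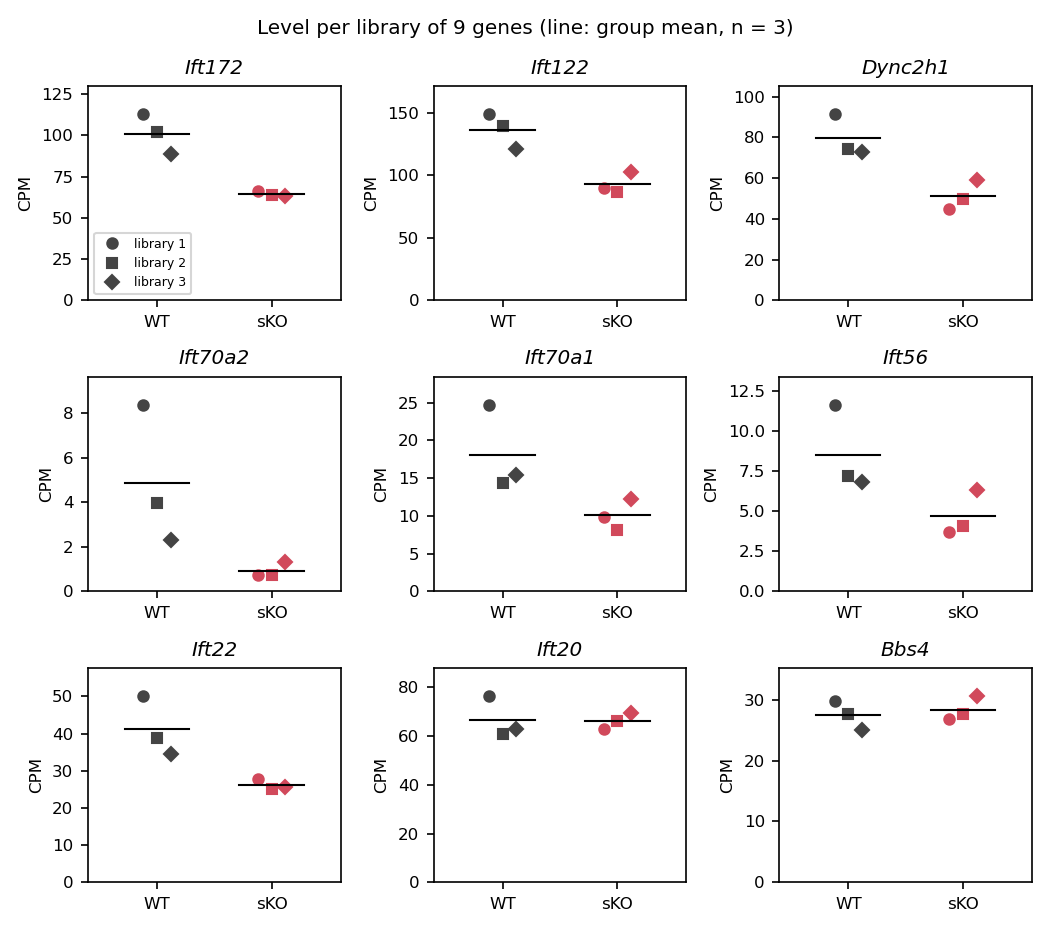
Level in CPM (vertical axis, from 0) of 9 genes in the 3 WT and 3 sKO libraries, with a marker shape for each replicate number and a line at the group mean. Ift172, Ift122, Dync2h1 and Ift70a2 have sKO libraries all below WT, Ift20 and Bbs4 have overlapping groups, and WT library 1 is the highest library for 8 of the 9, all except Bbs4.

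The motor of the inward path had estimates in a similar range. Dync2h1, the heavy chain of the dynein-2 motor, stood at 91.5, 74.1 and 72.8 CPM in WT and at 44.7, 50 and 59.3 CPM in sKO. All sKO libraries lay below all WT libraries. Dync2h1 fell from 79.5 ± 10.4 to 51.3 ± 7.35 CPM (mean ± SD over 3 libraries per group), a log2 fold change of -0.63 (SE 0.13, adjusted p = 0.0480 by edgeR). Dync2li1, the light intermediate chain of the same motor, had 37.9, 31.1 and 24.3 CPM in WT and 14.4, 19.7 and 21.9 CPM in sKO, also without overlap. Its log2 fold change of -0.73 (SE 0.19) was larger but not called (adjusted p = 0.0975 by edgeR), while DESeq2 called it (adjusted p = 0.00789).

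IFT-A carries cargo back to the cell body and brings membrane proteins into the cilium. Ift122 stood at 149, 139 and 121 CPM in WT and at 89.6, 86.3 and 103 CPM in sKO, the groups being apart. Ift122 fell from 136 ± 13.9 to 92.9 ± 8.76 CPM (mean ± SD over 3 libraries per group), a log2 fold change of -0.55 (SE 0.11, adjusted p = 0.0412 by edgeR). Ift140, its partner in the complex core, had 126, 121 and 94.9 CPM in WT and 93.3, 86.1 and 89.1 CPM in sKO. Those groups did not overlap, but WT library 3 lay near the sKO values (log2 fold change -0.35, SE 0.11, adjusted p = 0.190 by edgeR). The small subunit Ift43 stood at 37.5, 42.1 and 41.0 CPM in WT and 39.8, 41.4 and 33.8 CPM in sKO, with overlap (log2 fold change -0.07). Calls of Dync2h1 and Ift122 were lost without any 1 of WT libraries 1 and 2 and sKO libraries 1 and 2, with edgeR adjusted p up to 0.237 for Dync2h1 and 0.226 for Ift122.

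IFT subunits that carry other symbols were read as a separate list. Of 10 names listed, 4 were in the table, the others being older names of genes above. Wdr35 and Wdr19, both subunits of IFT-A, had levels of 91.4 ± 22.4 and 50.1 ± 2.36 CPM in WT and 49.6 ± 9.10 and 40.6 ± 3.15 CPM in sKO (SD over 3 libraries; log2 fold changes -0.88 and -0.30). Ttc21b of IFT-A and Cluap1 of IFT-B had log2 fold changes of -0.64 and -0.41. All 4 had every sKO library below every WT library, against 10.7% of all genes tested. All 4 were also lower at an unadjusted p under 0.05, against 8.54% of all genes tested. Of these genes 0 were called by edgeR, with Wdr35 nearest to the threshold (adjusted p = 0.0503 by edgeR).

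The 8 coat subunits of the BBSome showed no gene with separated groups. Bbs1, which contacts the recruiting GTPase, had 42.1, 42.4 and 29.0 CPM in WT and 23.2, 24.7 and 30.7 CPM in sKO, and WT library 3 fell among the sKO values (log2 fold change -0.53, SE 0.17, adjusted p = 0.169 by edgeR). Bbs5, a lipid-binding subunit, had 15.1, 12 and 9.08 CPM in WT and 7.33, 7.81 and 10.3 CPM in sKO (log2 fold change -0.51, SE 0.22, adjusted p = 0.332 by edgeR). Bbs7 had 30.4, 21.3 and 24.4 CPM in WT and 17.2, 17.0 and 22.0 CPM in sKO (log2 fold change -0.44, SE 0.16, adjusted p = 0.258 by edgeR). In each of these 3 genes 1 sKO library, the one numbered 3, reached into the WT range.

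Coat subunits with smaller estimates were Bbs9, Bbs2, Bbip1 and Ttc8, with log2 fold changes of -0.20, -0.20, -0.14 and -0.08. Bbs4 stood at 29.7, 27.7 and 25 CPM in WT and at 26.8, 27.6 and 30.6 CPM in sKO (log2 fold change 0.04, SE 0.12). Of the partners, Arl6 is the GTPase that recruits the coat to membranes, and it had 26.0, 19.0 and 18.5 CPM in WT and 17.5, 16.6 and 22.4 CPM in sKO (log2 fold change -0.17). Lztfl1, which holds the BBSome back from the cilium, had 78.6, 47.9 and 57.0 CPM in WT and 43.4, 45.1 and 53.8 CPM in sKO (log2 fold change -0.37, SE 0.17, adjusted p = 0.382 by edgeR). The chaperonin-like assembly factors Bbs10 and Bbs12 had log2 fold changes of -0.31 and -0.04. All 4 partners had overlapping groups.

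Levels per length set the genes in a different order from fold changes. On the scale of CPM per kilobase of exon (GENCODE M21, GRCm38), the WT level ranged from 1.82 for Ift56 to 43.7 for Ift20, with a median of 8.81 over the 34 genes. After Ift20, the WT levels were highest for Ift74 (25.8 CPM per kilobase), Ift43 (24.3) and Ift52 (24.1). Those 4 genes had log2 fold changes between -0.11 and -0.01. Next in WT level came Bbs2 (17.4), Dync2li1 (16.6), Ift172 (15.3) and Traf3ip1 (14.6), with log2 fold changes of -0.20, -0.73, -0.65 and -0.42. The lowest WT levels after Ift56 were those of Ift70a2 (2.0), Ift70b (2.96) and Ttc8 (4.12), with Ift70a1 at 4.86. The order was set on an annotation of another build than the counts and leaves out which isoforms were present.

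The libraries of each group differed from one another in a shared way across the genes. WT library 1 was the highest of the 6 for 28 of 34 genes. Of the sKO libraries, library 3 was the highest for 21 genes, and library 1 was the lowest for 18. The median level relative to the WT mean (log2) was 0.25, -0.10 and -0.14 in WT and -0.37, -0.39 and -0.24 in sKO. Without WT library 1 the log2 fold change came closer to 0 by over 1.5 times for 14 of the 34 genes and changed sign for 5 more, none of them among the 4 called. Of those 4, Ift172 alone stayed called in that fit, and Ift70a2 moved from -2.39 to -1.75. Without that library the log2 fold change was -0.17 for Ift57, -0.17 for Ift81, -0.14 for Lztfl1, -0.13 for Bbs10, -0.29 for Ift88 and -0.31 for Bbs5. Among genes with larger estimates it was -0.57 for Ift56 and -0.55 for Ift70a1.

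**Figure D3:**
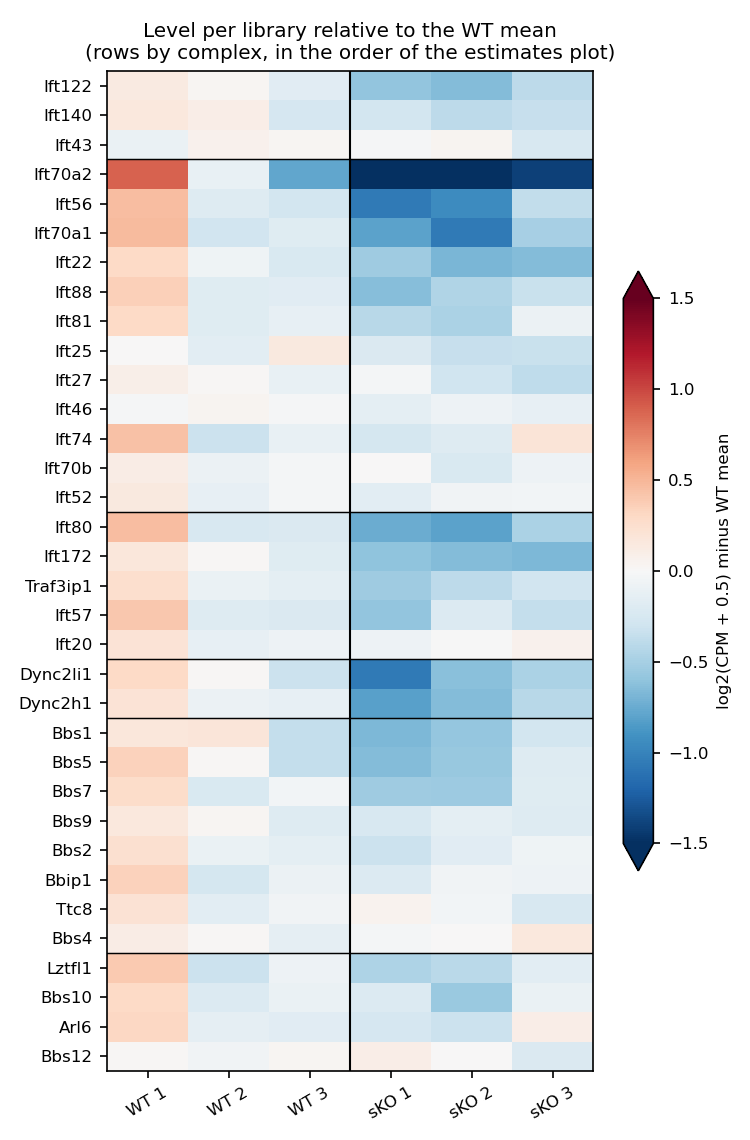
Level of each of the 34 genes in each library as log2(CPM + 0.5) minus the WT mean of that gene, red above and blue below, with lines between complexes and colours capped at 1.5. The WT 1 column is reddish for most genes, and the blue of the sKO columns is deepest for Ift70a2 and weak for most BBSome rows.

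Pachytene and early meiotic markers had the same highest library in each group as the IFT and BBSome genes. Pachytene spermatocyte markers, 15 genes of mid-meiotic prophase, had medians relative to the WT mean (log2) of 0.65, -0.10 and -0.45 in WT and of -1.77, -1.60 and -1.12 in sKO. Their summed level was 856.7 to 1736 CPM in WT and 355.8 to 605.8 CPM in sKO, and 4 of 13 tested were called lower. In WT the medians of the pachytene markers and of the 34 genes shared the order of library 1, then 2, then 3. In sKO library 3 was the highest in both, while libraries 1 and 2 were in opposite order, at the close values of -0.37 and -0.39 for the 34 genes. By summed level the 34 genes (1147, 1170 and 1282 CPM in sKO) and the pachytene markers (355.8, 396.6 and 605.8 CPM) had the same order. Early meiotic prophase markers had medians of 0.353, -0.228 and -0.129 in WT and of -0.815, -0.781 and -0.0256 in sKO. They summed to 1558 to 2511 CPM in WT and 1191 to 1869 CPM in sKO, with 1 of 12 called lower. Spermatogonia markers summed to 885.7 to 1022 CPM in WT and 1010 to 1028 CPM in sKO, with 0 of 14 called by edgeR and 2 lower and 1 higher at an unadjusted p under 0.05. The part of these cell types in the IFT result was not tested.

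**Figure D4:**
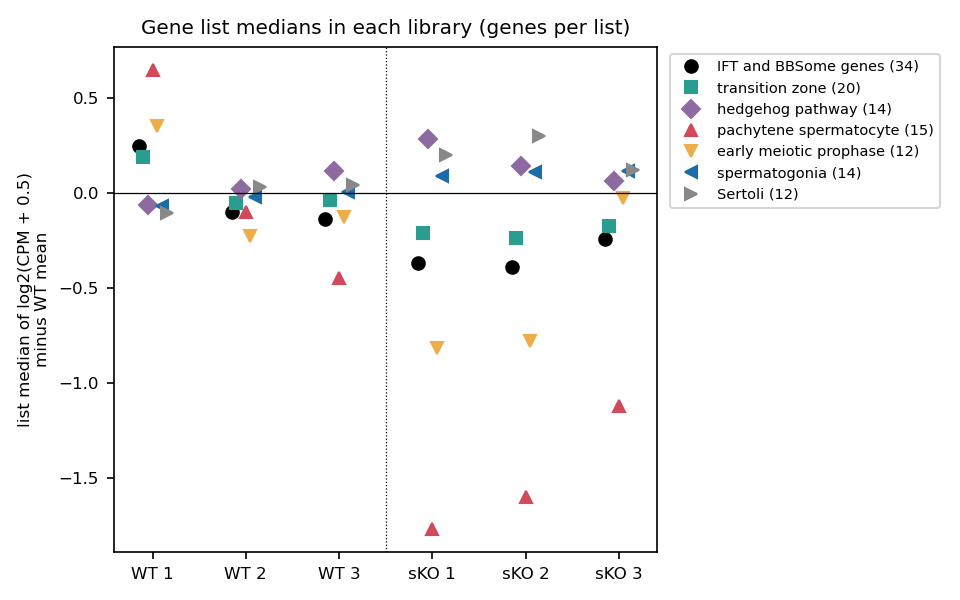
Median over each gene list of log2(CPM + 0.5) minus the WT mean, by library. The IFT and BBSome genes lie at 0.25 in WT library 1 and at -0.39 to -0.24 in sKO, in the same direction as pachytene markers (-1.77 to -1.12 in sKO) and over a smaller range, while Sertoli and hedgehog genes lie above 0 in sKO.

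Somatic and ciliated cell markers were read beside these values. Sertoli markers had estimates above 0 for 12 of 12 genes, with 0 called by edgeR and 6 higher at an unadjusted p under 0.05. Of 13 markers of multiciliated cells, such as those lining the efferent ducts, 12 were in the table and 7 were tested, with 0 called and 1 lower and 2 higher at an unadjusted p under 0.05. Their summed level was 660.6 to 718.6 CPM in WT and 567.5 to 628.0 CPM in sKO, most of it from the tubulin Tubb4b. Foxj1, the master regulator of motile cilia, stood at 2.13 to 3.11 CPM in WT and 2.54 to 3.60 CPM in sKO, and the multiciliation regulators Mcidas and Gmnc had at most 11 and 5 counts in any library. Leaving out sKO library 1, which held the epididymal transcripts, gave a median log2 fold change of -0.36 over the 34 genes, and their call count was then 0 as for all genes, with 14 lower at an unadjusted p under 0.05.

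Neighbouring parts of the ciliary pathway were set beside the trains. Of 20 transition zone genes, which gate the base of the cilium, edgeR called 1 lower and 0 higher, and the median log2 fold change was -0.23. The called gene was Tmem107, a membrane component of the gate, which fell from 29.5 ± 0.536 to 19.2 ± 2.47 CPM (SD over 3 libraries; adjusted p = 0.0480 by edgeR). Of 17 motor subunits, adaptors and related factors in the table, 0 were called by edgeR, and the median was -0.16. At an unadjusted p under 0.05, 5 were lower and 1 was higher. The 1 higher at that threshold was the dynein light chain Dynlt3 (log2 fold change 0.32, adjusted p = 0.193 by edgeR). Also in this list was the BBSome assembly factor Mkks, not a motor, with a log2 fold change of 0.11. Kif3a and Kif3b, the kinesin-2 motors that carry IFT-B outward, had log2 fold changes of -0.14 and -0.24, and the dynein-2 chains Dync2i1, Dync2i2 and Dynlt2b had -0.37, -0.30 and -0.78. Dynlrb2, a dynein light chain, had 4.43, 2.36 and 1.24 CPM in WT and 0.300, 0.242 and 0.825 CPM in sKO (adjusted p = 0.0596 by edgeR).

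GTPases and signalling genes of the cilium had estimates in both directions. Of 15 cilium GTPase and trafficking genes edgeR called 0, with 3 lower and 0 higher at an unadjusted p under 0.05 and a median of 0.04. The 3 were Rabl2, Pde6d and Arl3, with log2 fold changes of -0.45, -0.34 and -0.45 (adjusted p = 0.130, 0.135 and 0.197 by edgeR), and Arl3 is known to unload lipidated cargo inside the cilium. Of 14 hedgehog pathway genes, whose signal passes through primary cilia, 12 had estimates above 0 and edgeR called 0, with 1 higher at an unadjusted p under 0.05 and a median of 0.15. The 1 was Dhh, which is also in the Sertoli marker list. Dhh had 155, 174 and 183 CPM in WT and 202, 202 and 189 CPM in sKO, without overlap (adjusted p = 0.354 by edgeR). Gli1, a direct hedgehog target, had 40.3, 44.3 and 51.2 CPM in WT and 58.7, 57.0 and 45.3 CPM in sKO, with overlap. Among 10 tested transcription factors of ciliogenesis Rfx2 was the 1 called. Rfx4, of the same family, had 11.6, 5.89 and 3.05 CPM in WT and 0.240, 0.303 and 1.26 CPM in sKO (adjusted p = 0.0596 by edgeR), whereas Rfx1 and Rfx3 had log2 fold changes of 0.06 and 0.08.

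**Figure D5:**
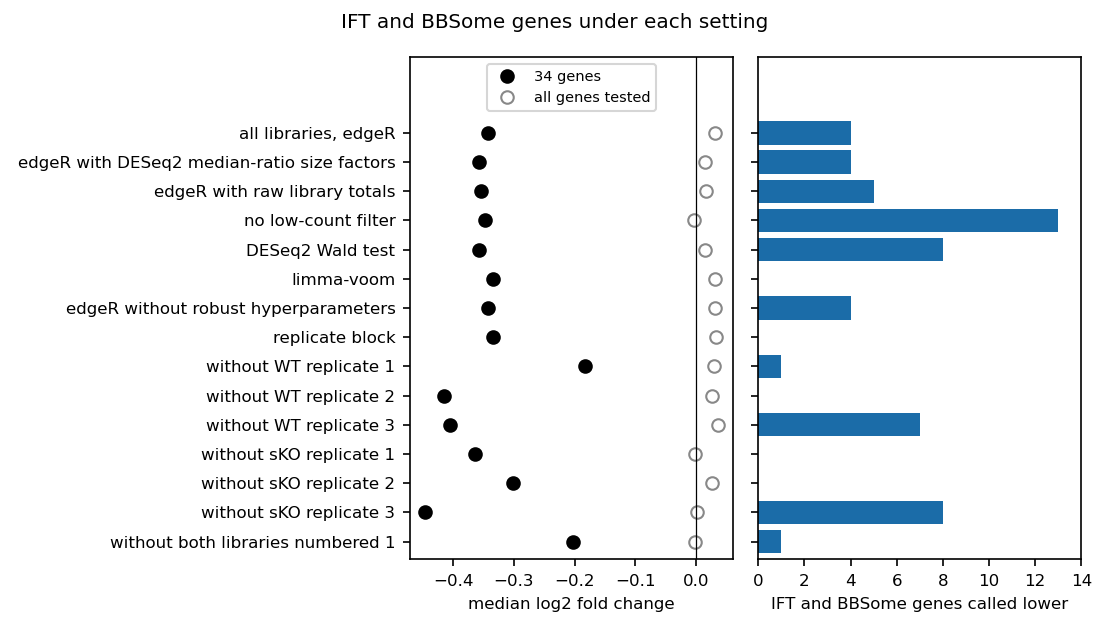
Median log2 fold change of the 34 genes and of all genes tested (left) and number of the 34 called lower (right) under each setting. The median of the 34 genes lies between -0.45 and -0.18 in every setting shown, below that of all genes, while the number called runs from 0 to 13.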

How the data were processed

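Poly(A) RNA sequencing of 3 WT and 3 sKO testis samples was analysed. The authors deposited 1 table of raw counts, with genes by symbol. Per the submitters' processing notes Trim Galore, HISAT2 and featureCounts were used with build mm39; their versions, the annotation, the strand setting and the handling of multi-mapping reads are not given here. Columns named con and scKO were matched to WT and sKO by their numbers. Without a stated strand setting, reads of antisense or overlapping genes cannot be told apart; 7 of the 34 genes overlap exons of another gene in GENCODE M21, by at most 7.86% of their exon length (Ift57).

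The test was edgeR 4.0.16 (R 4.3.3) with filterByExpr, TMM scaling and its quasi-likelihood F test in the robust form, with genotype as the only term. Benjamini-Hochberg adjustment covered all 18860 genes tested, and "called" means an adjusted p under 0.05. CPM uses TMM-scaled totals, at which 3 counts correspond to 0.165 to 0.187 CPM. The SE was derived from the F statistic. DESeq2 1.42.0, limma-voom (limma 3.58.1), other scalings and filters, the replicate block and leaving out libraries were the alternatives. The scripts were tested on simulated data. The genes and lists were chosen with earlier results of these data known. Genes named from other lists were called ones, some of the 3 with the smallest p in a list, and others chosen after their values were seen (Kif3a, Kif3b, Dync2i2, Dynlt3, Mkks, Mcidas, Gmnc, Foxj1, Rfx1, Rfx3, Cluap1, Tubb4b). RefSeq GRCm38.p6 matched 34 of 34 symbols, 5 of them through synonyms or older names.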

Additional observations from a re-analysis of the deposited data

How the results depend on the processing

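The median log2 fold change of the 34 genes stayed below 0 in all 14 alternatives, and with each library left out in turn it ranged from -0.45 to -0.18. The number called depended on the setting. Of the 34 genes DESeq2 called 8 lower, the fit without the low-count filter 13, limma-voom 0, the fit without both libraries numbered 1 called 1, and leaving out each library gave 0 to 8. Over all genes the counts lower and higher were 721 and 56 with DESeq2, 992 and 154 without the low-count filter and 0 and 0 with limma-voom. They were 155 and 5 without both libraries numbered 1, and 0 to 624 and 0 to 31 when single libraries were left out. The number of genes tested also changed with the filter and the libraries. The share called lower was 3.82% with DESeq2, 2.83% of 35085 without the low-count filter and 0.817% of 18977 without both libraries numbered 1. With single libraries left out it was 0 to 3.23% of 19259 to 19469 genes. The cause of these differences between settings was not tested. Where limma-voom called 0, 16 of the 34 genes were lower and 0 higher at an unadjusted p under 0.05.

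Same-numbered WT and sKO libraries did not deviate together (correlations of -0.37, 0.15 and -0.31 for numbers 1, 2 and 3), so the numbers were not read as pairs. A fit with the replicate block called 21 genes lower and 0 higher, and 0 of the 34 (14 lower and 0 higher at an unadjusted p under 0.05).

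Of 476 single-gene values under the alternatives 415 kept their direction and side of the threshold. Most of the 34 genes were not called with all libraries, and these count as kept wherever they stayed uncalled with the same sign. Of the 4 called genes, Ift172 was called in 9 of the 14 alternatives, and Ift122, Dync2h1 and Ift70a2 each in 7. Genes that changed sign had estimates between -0.17 (Arl6) and 0.04 (Bbs4) with all libraries. With single libraries left out, the log2 fold change ranged from -0.349 to 0.00788 for Arl6, -0.263 to 0.0647 for Bbip1, -0.133 to 0.0144 for Bbs12, -0.0482 to 0.105 for Bbs4, -0.0816 to 0.0989 for Ift20, -0.299 to 0.145 for Ift74 and -0.172 to 0.0373 for Ttc8. Without both libraries numbered 1 it was 0.0454 for Arl6, 0.0956 for Bbip1, 0.118 for Ift20, 0.00695 for Ift52 and 0.218 for Ift74.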
